A study of Mus musculus with 32 samples.

Results

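The extracellular matrix proteases and their natural inhibitors were followed in the liver, epididymal white fat (eWAT), inguinal white fat (iWAT) and brown fat (BAT) of mice lacking Gpr146, a G protein-coupled receptor. The genes were taken by name: every gene whose symbol is Mmp or Adamts with a number, and Timp1 to Timp4. This gave 46 genes of the 24646 measured, the same 46 in each tissue, namely 23 Mmp genes, 4 Timp genes and 19 Adamts genes. All mice were male, 20 weeks old, on a C57BL/6J background, fed a high-fat diet (HFD) for 3 months and fasted overnight. The knockout (KO) mice carried a whole-body deletion of Gpr146 and were compared with wild-type (WT) littermates, so that diet and fasting were shared by both genotypes. Each genotype had 4 mice, and every tissue of a mouse was put on its own array, which made 32 arrays. No values of other diets or of fed mice were used, and a whole-body deletion does not separate the tissue in which the receptor is missing.

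Matrix metalloproteinases (Mmp) are zinc enzymes that cut collagens, elastin, laminin and other parts of the matrix around cells. The tissue inhibitors of metalloproteinases (Timp) bind to the active site of these enzymes and block them. The Adamts enzymes carry thrombospondin repeats, and their members trim procollagens, cut proteoglycans such as versican and aggrecan, or cut von Willebrand factor. In growing fat the matrix around enlarging adipocytes is rebuilt, and macrophages, fibroblast-like progenitors and adipocytes all contribute proteases. Metalloproteinases are made as inactive precursors, so an RNA level is not an enzyme activity.

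Values are log2 array values, and a difference of 1 is a change of 2-fold. Probes of different genes differ in brightness, so values were compared between mice for the same gene and never between genes. As a guide to which members had a signal at all, the 95th percentile of 1402 olfactory and vomeronasal receptor genes, which these tissues should not use, lay at 2.89 in liver, 2.76 in eWAT, 3.38 in iWAT and 2.74 in BAT. Averaged over all 8 arrays of a tissue, 27 members lay above that level in eWAT, 25 in iWAT, 20 in BAT and 19 in liver. Mmp2, Mmp9, Mmp12, Mmp14, Mmp15, Mmp19, Timp2, Timp3, Adamts1, Adamts2 and Adamts9 were among the 15 members above it in all 4 tissues. A further 17 members were above it in none, including Mmp8, Mmp10, Mmp13 and Mmp7.

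Some arrays stood apart. In eWAT, KO replicate 2 was the KO mouse nearest to the WT mean for 9 of the 11 members called there, the exceptions being Timp4 and Adamts4 (KO replicate 4). In iWAT the mean of 6 B cell markers was 8.05 and 7.9998 in WT replicates 1 and 2, 7.61 in KO replicate 2 and 5.86 in KO replicate 4, against 3.13 to 3.42 in the other 4 arrays. In BAT the mean of 8 skeletal muscle markers was 6.36 and 7.50 in WT replicates 2 and 3 and 7.62 in KO replicate 2, against 2.92 to 3.77 in the other 5. Liver and BAT carried their defining markers. The mean of 8 hepatocyte markers was 9.69 to 9.79 in liver, and that of 5 brown adipocyte markers was 8.34 to 9.15 in BAT. The mean of 8 adipocyte markers was 8.83 to 9.85 in the white depots and 8.98 to 9.22 in BAT. That list does not tell eWAT from iWAT or BAT. Values named visceral and inguinal were read as those of eWAT and iWAT. The titles of the 4 liver KO samples name both genotypes, and their other labels say KO. Gpr146 itself was lower in KO mice by 1.77 in liver, 1.53 in eWAT, 1.55 in iWAT and 1.16 in BAT, with no overlap between the groups in any tissue (adjusted p = 6.55e-06, 0.00823, 0.221 and 0.0727 from limma).

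Changes past the test were found in eWAT. There 10 of the 46 members were lower and 1 was higher in KO mice at an adjusted p under 0.05 (limma, adjusted over all genes). The lower members were 6 metalloproteinases (Mmp2, Mmp3, Mmp12, Mmp13, Mmp14 and Mmp19), the inhibitors Timp1 and Timp2, and Adamts2 and Adamts4. The higher member was the inhibitor Timp4. The 11 members are 23.9% of the list, and 15.2% of all genes were called in this tissue. The 10 lower ones are 21.7% of the list, against 10.7% of all genes called lower, and the 1 higher one stands against 4.57% called higher. The groups did not overlap for 11 members, also 23.9%, against 21.6% of all genes. These are not the same 11, since the groups of Timp1, Adamts2 and Adamts4 overlapped. The median log2 change over the 46 members was -0.07, and over all genes 0.03. In bulk tissue, fewer cells of a type and less RNA per cell cannot be told apart. The count depended on single arrays: it was 4 without WT replicate 2 or WT replicate 4, 5 without KO replicate 1, and 7 without WT replicate 1, KO replicate 3 or KO replicate 4. It was 16 without KO replicate 2. Mmp2, Mmp3, Mmp13 and Mmp19 stayed past the threshold whichever array was left out. With the unpaired test that the methods name, after adjustment over all genes, all 11 members missed the threshold. With quantile normalization 14 members were called, 11 lower and 3 higher.

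**Figure D1:**
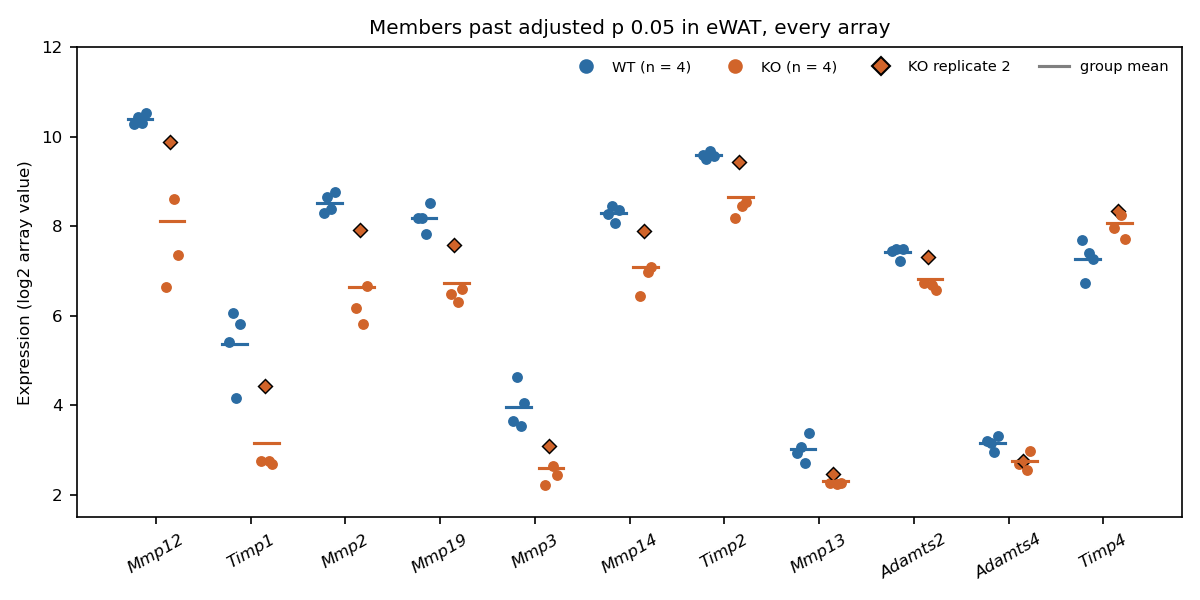
Log2 array values of the 11 members past the threshold in eWAT, 1 point per mouse, WT in blue and KO in orange, lines at the group means. KO replicate 2, drawn as a diamond, was the KO mouse nearest to the WT mean for 9 of the 11 members, and Timp4 alone among the 11 was higher in KO mice.

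The gelatinases cut denatured collagen and basement membrane collagen. Mmp2, the gelatinase of mesenchymal cells, measured 8.29, 8.65, 8.38 and 8.76 in WT eWAT and 6.18, 7.91, 5.81 and 6.66 in KO eWAT. All KO mice lay below all WT mice, and the mean was 3.68-fold lower (log2 change -1.88, standard error 0.38, adjusted p = 0.0142). Mmp9, the gelatinase of neutrophils and macrophages, measured 3.22, 3.06, 3.35 and 2.69 in WT and 3.18, 3.66, 4.12 and 3.46 in KO eWAT. Its groups overlapped, and its log2 difference of 0.53 (standard error 0.20, 95% interval 0.07 to 0.98) did not pass the test (adjusted p = 0.117).

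Mmp12, the macrophage metalloelastase, had the largest decrease of the 46 members in eWAT. It measured 10.28, 10.43, 10.30 and 10.53 in WT mice, a spread of 0.12 (SD, n = 4), and 6.65, 9.87, 8.60 and 7.37 in KO mice, a spread of 1.42 (SD, n = 4). Every KO mouse was below the WT mice, by little in replicate 2 and by a wide margin in replicate 1. The mean was 4.78-fold lower (log2 change -2.26, standard error 0.57, adjusted p = 0.0279).

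Of the 3 stromelysins, which cut proteoglycans and laminin and can activate other metalloproteinases, Mmp3 fell. It measured 3.65, 4.62, 3.55 and 4.06 in WT and 2.21, 3.10, 2.65 and 2.45 in KO eWAT, without overlap (log2 change -1.37, standard error 0.25, adjusted p = 0.0117). All KO mice but replicate 2 lay below the silent-gene level of 2.76. Mmp11 differed by -0.46 with an interval of -0.95 to 0.03, and Mmp10, at the level of silent genes, by 0.05 (interval -0.29 to 0.39). Of the 4 collagenases, which open the triple helix of fibrillar collagen, Mmp13 was lower. Its values were 2.94, 3.07, 2.72 and 3.38 in WT and 2.27, 2.47, 2.25 and 2.27 in KO eWAT (log2 change -0.71, standard error 0.13, adjusted p = 0.0117). That call concerned a dim gene: 3 WT mice were above the silent-gene level of 2.76 and all KO mice were below it. Mmp8, the neutrophil collagenase, differed by 0.13 (interval -0.06 to 0.33) and, like Mmp1a and Mmp1b, lay at the level of silent genes.

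Mmp14 sits in the cell membrane and activates pro-Mmp2 in a complex that also holds Timp2. Its values were 8.26, 8.45, 8.07 and 8.36 in WT eWAT and 6.43, 7.89, 6.97 and 7.08 in KO eWAT. The groups did not overlap, and the mean was 2.28-fold lower (log2 change -1.19, standard error 0.26, adjusted p = 0.0172). The 5 other membrane-bound members did not pass. Among them Mmp15 differed by 0.34 (interval 0.04 to 0.63, adjusted p = 0.121) and Mmp24 by 0.25 (interval 0.07 to 0.44, adjusted p = 0.0685), both upward.

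Mmp19, a secreted protease that cuts basement membrane proteins, had the smallest p of the members in eWAT. It measured 8.17, 8.19, 7.82 and 8.51 in WT and 6.49, 7.57, 6.31 and 6.59 in KO mice. No KO mouse reached the WT range, and the mean was 2.70-fold lower (log2 change -1.43, standard error 0.26, adjusted p = 0.0110). The genes of the whole array whose 8 eWAT values ran most like those of Mmp19 were Pdlim1 (r = 0.994), Chic2 (0.991), Lrrn4cl (0.991) and Pcbp1 (0.991). These are correlations over 8 arrays that share the difference between genotypes, given as a description.

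The 4 inhibitors did not move together. Timp1, an inducible inhibitor of most secreted metalloproteinases, measured 5.41, 6.06, 4.16 and 5.83 in WT eWAT and 2.75, 4.44, 2.76 and 2.70 in KO eWAT. Its log2 change was -2.20 (standard error 0.48, adjusted p = 0.0180), although KO replicate 2 lay above WT replicate 3. The other 3 KO mice were at or below the silent-gene level of 2.76, so that the size of the decrease has no exact value. Timp2, the inhibitor that takes part in pro-Mmp2 activation, measured 9.59, 9.51, 9.68 and 9.56 in WT and 8.18, 9.42, 8.45 and 8.53 in KO mice. Its log2 change was -0.94 (standard error 0.23, adjusted p = 0.0235), with KO replicate 2 only just below the WT mice. Timp3, which binds to the matrix and also blocks Adam17, ranged from 7.82 to 8.10 in WT and from 7.78 to 8.15 in KO eWAT. Its difference was 0.01 with an interval of -0.22 to 0.25. Timp4, which is abundant in fat and heart, measured 7.70, 6.73, 7.39 and 7.26 in WT and 7.96, 8.34, 8.24 and 7.72 in KO eWAT. All KO mice were above all WT mice, by as little as 7.72 against 7.70 at the edge, and the mean was 1.74-fold higher (log2 change 0.80, standard error 0.21, adjusted p = 0.0299).

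Of the 19 Adamts genes, 2 were lower in eWAT and 17 did not pass. The 2 are 10.5% of these genes, close to the 10.7% of all genes called lower. Adamts2, which removes the amino-terminal propeptide of fibrillar procollagens, measured 7.45, 7.50, 7.23 and 7.50 in WT and 6.72, 7.30, 6.68 and 6.58 in KO mice. KO replicate 2 lay inside the WT range (log2 change -0.60, standard error 0.15, adjusted p = 0.0286). The related procollagen proteinases Adamts3 and Adamts14 were at the level of silent genes, with differences of -0.27 and -0.25 (adjusted p = 0.0829 and 0.0709). Among the proteoglycan-cutting members, Adamts4 measured 3.21, 3.16, 2.95 and 3.32 in WT and 2.70, 2.75, 2.56 and 2.99 in KO eWAT, with KO replicate 4 inside the WT range and the other 3 KO mice below 2.76 (log2 change -0.41, standard error 0.11, adjusted p = 0.0389).

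Adamts5, the other main aggrecanase, measured 8.65, 8.45, 8.43 and 8.42 in WT and 8.005, 8.46, 7.95 and 7.78 in KO mice. It missed the threshold at a difference of -0.44 (interval -0.75 to -0.13, adjusted p = 0.0633), and 3 of its 4 KO values were below the WT range. Adamts9, which cuts versican and aggrecan, measured 5.85, 5.92, 6.19 and 5.88 in WT and 6.999, 5.95, 6.78 and 6.95 in KO mice. It was just outside the threshold in the other direction, at 0.71 (interval 0.23 to 1.19, adjusted p = 0.0539), with KO replicate 2 again inside the WT range. Adamts15 differed by -0.54 (adjusted p = 0.108) and Adamts1 by -0.16 (interval -0.36 to 0.03). Adamts13, the liver-derived protease of von Willebrand factor, was at the level of silent genes in fat and differed by 0.08 in eWAT.

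A run of 10 Mmp genes lies on chromosome 9, from base 7272514 to base 7699585 of GRCm38.p6, in the order Mmp13, Mmp12, Mmp1b, Mmp3, Mmp1a, Mmp10, Mmp8, Mmp27, Mmp20 and Mmp7, with few other genes between them. Of these 10, 3 were called in eWAT (Mmp3, Mmp12 and Mmp13, all lower), which is 30% against 15.2% of all genes, and 2 lay above the silent-gene level (Mmp3 and Mmp12). Metalloproteinase promoters are known for binding sites of AP-1, the Fos and Jun factor. The letters TGANTCA, which read the same on both strands, were searched in the 250 bases before the start of each gene in the RefSeq promoter table. A window was held for 32 of the 46 members. All 10 genes of the chromosome 9 run had one, and 8 of them held the motif, against 0 of the 22 other members with a window and 6.75% of all 32841 windows. A member counted if any of its windows held the motif, whereas the 6.75% is a share of windows. The 22 other members include Timp and Adamts genes, and Mmp2, Mmp9 and Mmp19 had no window. A match is a description of the letters and not a bound site. The windows of the 3 called neighbours, and of Mmp10, which held the motif too but stayed at the level of silent genes, are shown with the match in capitals, all on the plus strand. For Mmp12, which has 2 windows in the table, the one with the match is shown.

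Mmp13, chr9:7272264-7272513: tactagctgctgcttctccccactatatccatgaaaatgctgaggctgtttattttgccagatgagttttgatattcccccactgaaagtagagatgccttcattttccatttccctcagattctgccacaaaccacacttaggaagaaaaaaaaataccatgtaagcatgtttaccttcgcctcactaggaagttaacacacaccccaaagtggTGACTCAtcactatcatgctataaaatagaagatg
Mmp12, chr9:7347124-7347373: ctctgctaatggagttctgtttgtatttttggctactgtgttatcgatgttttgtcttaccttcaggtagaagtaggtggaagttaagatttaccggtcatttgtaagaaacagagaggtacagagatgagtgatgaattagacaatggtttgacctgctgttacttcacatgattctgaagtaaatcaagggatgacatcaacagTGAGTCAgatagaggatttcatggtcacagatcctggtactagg
Mmp3, chr9:7445572-7445821: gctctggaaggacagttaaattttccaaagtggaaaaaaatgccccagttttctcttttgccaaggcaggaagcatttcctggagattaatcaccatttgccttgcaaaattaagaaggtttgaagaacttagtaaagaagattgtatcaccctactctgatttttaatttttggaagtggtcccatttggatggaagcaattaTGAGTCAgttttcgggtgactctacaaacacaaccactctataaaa
Mmp10, chr9:7502092-7502341: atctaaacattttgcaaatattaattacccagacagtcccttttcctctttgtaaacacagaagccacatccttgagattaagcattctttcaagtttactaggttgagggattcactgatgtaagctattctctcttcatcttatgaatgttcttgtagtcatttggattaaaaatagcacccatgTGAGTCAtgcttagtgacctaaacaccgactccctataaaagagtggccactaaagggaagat

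The first base of the match stood 35 bases before the start in Mmp13, 44 in Mmp12, 46 in Mmp3 and 63 in Mmp10. The files' own annotation build is not given in the sources used here, and the array values themselves do not depend on these windows.

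Markers of several cell types moved with the proteases in eWAT. Of 11 macrophage markers measured, 10 were called lower and none higher, and their mean ranged from 8.27 to 8.55 in WT and from 6.05 to 7.98 in KO mice. Of 10 markers of lipid-associated macrophages, 9 were lower (8.38 to 8.62 in WT, 5.90 to 8.06 in KO). Of 9 markers of fibroblasts and progenitors, 7 were lower (7.76 to 8.08 in WT, 6.63 to 7.61 in KO), as were 4 of 8 mast cell markers and 3 of 8 mesothelial markers. Adipocyte markers went the other way, with 6 of 8 higher and 1 lower (8.83 to 9.17 in WT, 9.44 to 9.83 in KO), and 2 of 7 endothelial markers were higher. Over all genes in eWAT, 10.7% were called lower and 4.57% higher. KO replicate 2 had the highest KO mean for the macrophage, lipid-associated macrophage, fibroblast, mast cell and mesothelial lists. For the mesothelial list the KO means spanned only 4.17 to 4.37. KO replicate 2 also had the lowest KO mean, the one nearest to WT, for the adipocyte (9.44) and endothelial (7.30) lists. It was also the KO mouse nearest to WT for Mmp2, Mmp3, Mmp12, Mmp13, Mmp14, Mmp19, Timp1, Timp2 and Adamts2. The part of these cell types in the protease values was not tested.

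**Figure D2:**
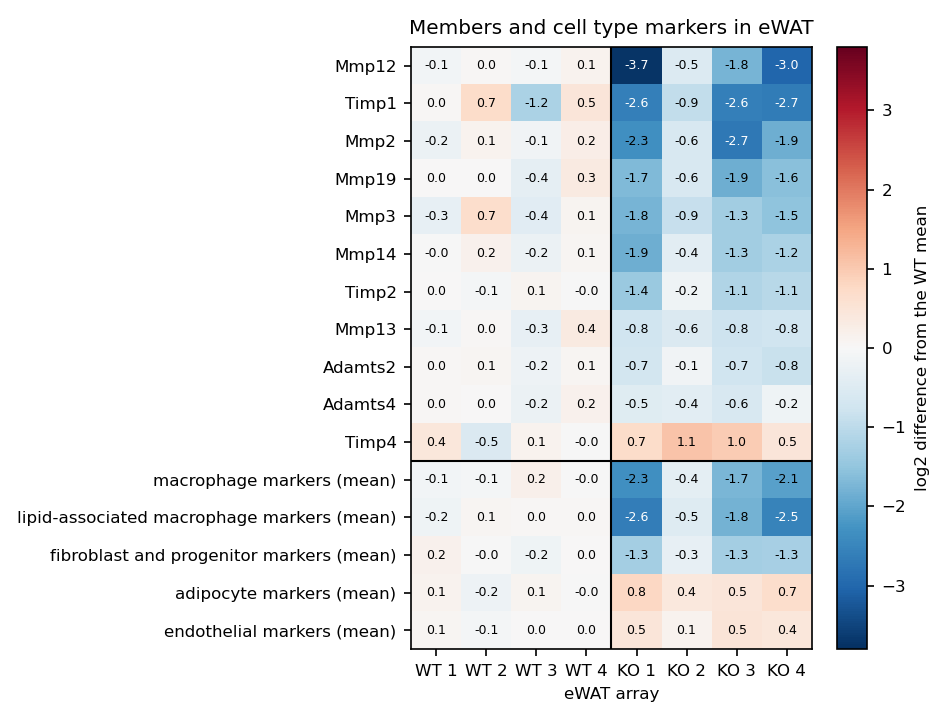
Difference of each eWAT array from the WT mean, in log2 units, for the 11 members past the threshold (above the line) and for the means of 5 cell type marker lists (below it). Blue is lower and red higher than WT. The column of KO replicate 2 is paler than the other KO columns for the lower members except Adamts4, and for the macrophage and fibroblast lists.

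Of 42 genes of extracellular proteolysis outside the 3 families, a list chosen with earlier results of these data known, 18 were called lower and 0 higher in eWAT, and 24 did not pass. Over all genes 10.7% were called lower. The median log2 change of the 42 was -0.40, and 10 of them had a higher mean in KO mice. The 18 included the urokinase Plau (-0.91, adjusted p = 0.0207) and its receptor Plaur (-1.52, adjusted p = 0.0125), which start plasmin formation. The membrane proteases Adam8 (-3.05, adjusted p = 0.0148), Adam12 (-1.52, adjusted p = 0.00935) and Adam17 (-1.03, adjusted p = 0.0129) were lower. So were the lysosomal cathepsins Ctsk (-2.98, adjusted p = 0.0156) and Ctsl (-1.07, adjusted p = 0.0168). Reck, a membrane-anchored inhibitor of metalloproteinases, was lower too (-0.76, adjusted p = 0.0230), as was Bmp1, the procollagen C-proteinase (-0.71, adjusted p = 0.00924).

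Of 23 genes for substrates of these enzymes, 8 were lower in eWAT and 0 higher, with a median of -0.12. Over all genes 10.7% were called lower and 4.57% higher. The versican gene Vcan changed by -1.65 (adjusted p = 0.0190), the fibronectin gene Fn1 by -1.30 (adjusted p = 0.0315) and Col1a1 by -1.35 (adjusted p = 0.0123). Col1a2, Col3a1, Thbs2, Lama2 and Hspg2 were the others, at -0.35 to -1.17. In liver, iWAT and BAT, 0 genes of either list were called by limma.

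In iWAT the test called 0 of the 46 members, as it called 0 of the 24646 genes (0%). At an unadjusted p under 0.05 there were 5 members, 10.9%, against 15.4% of all genes. The unpaired test that the methods name, before adjustment, gave 4 and after adjustment 0. The groups of 1 member (Mmp8, 2.17%) did not overlap, against 8.15% of all genes. The smallest p belonged to Adamts5, which measured 8.62, 8.49, 9.28 and 9.41 in WT and 7.94, 8.03, 7.96 and 8.62 in KO mice (log2 difference -0.81, standard error 0.24, adjusted p = 0.233). Adamts10, a fibrillin-binding member, differed by -0.79 (adjusted p = 0.245) and Mmp15 by 0.38 (adjusted p = 0.265). Mmp12 measured 6.93, 6.26, 6.80 and 7.67 in WT and 4.99, 4.29, 7.35 and 4.99 in KO iWAT, with 3 KO mice below the WT range and 1 within it (-1.51, interval -2.86 to -0.16). Mmp2, which fell in eWAT, differed by -0.01 in iWAT with an interval of -0.82 to 0.80. That value depended on the arrays used. Without the 4 iWAT arrays high in B cell markers, which leaves 2 mice per genotype, Mmp2 differed by -0.74. It did not pass there either (standard error 0.20, limma, adjusted p = 0.0911).

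WT replicates 1 and 2, the iWAT arrays high in B cell markers, had the lowest WT values of Mmp2, Mmp3, Mmp19, Timp2, Timp3, Timp4, Adamts1, Adamts2 and Adamts5. Mmp3 measured 4.36 and 4.13 in these arrays and 5.73 and 6.04 in WT replicates 3 and 4. The KO arrays went the other way. KO replicates 2 and 4, also high in B cell markers, had the highest KO values of Adamts5, Mmp3, Timp4 and Timp2. Leaving out the arrays high in B cell markers therefore removed the lowest WT and the highest KO values of these genes. Without the 4 arrays high in B cell markers, a choice made after seeing the data that leaves 2 mice per genotype, 5 members were called, all lower in KO, or 10.9% of the list against 3.72% of all genes. They were Adamts5 (-1.40, standard error 0.15, adjusted p = 0.0107), Adamts1 (-1.16, standard error 0.16, adjusted p = 0.0185), Timp4 (-1.01, standard error 0.15, adjusted p = 0.0212), Mmp3 (-1.15, standard error 0.20, adjusted p = 0.0320) and Timp2 (-0.83, standard error 0.17, adjusted p = 0.0457). With all 8 arrays the same 5 genes differed by -0.81, -0.41, -0.47, -0.15 and -0.30, and none passed. Adamts1 and Adamts5 are neighbours on chromosome 16.

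**Figure D3:**
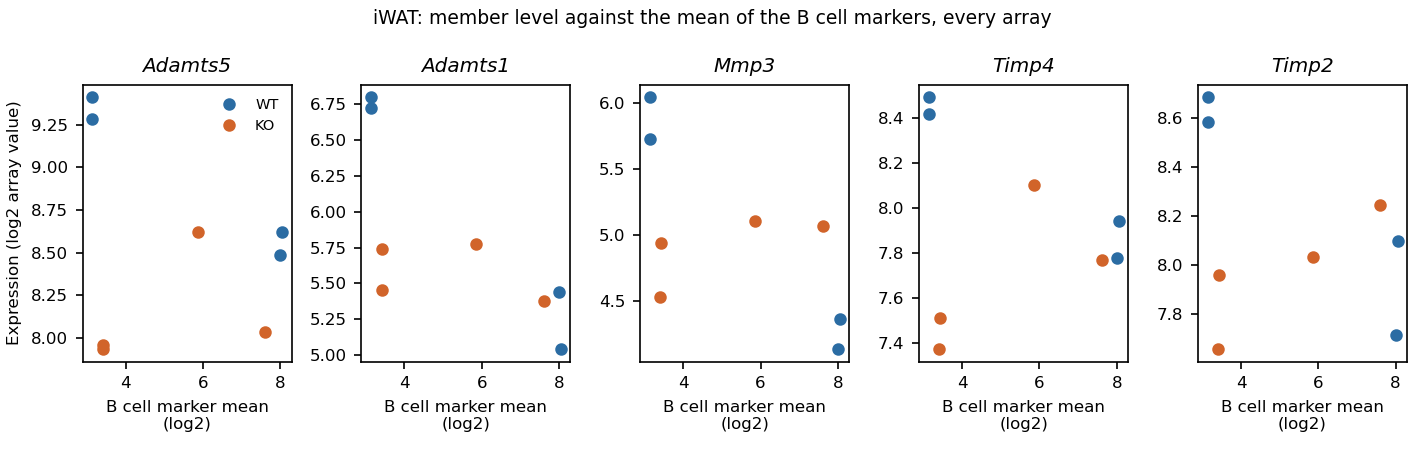
Log2 array values of Adamts5, Adamts1, Mmp3, Timp4 and Timp2 in the 8 iWAT arrays (vertical axes, each with its own range) against the mean log2 value of 6 B cell markers in the same array (horizontal axis), WT in blue and KO in orange. Among the 4 arrays at the left, both WT arrays lie above both KO arrays in every panel, and at the right WT replicates 1 and 2 lie lower. For Adamts5, Mmp3, Timp4 and Timp2, KO replicates 2 and 4 lie higher than the KO arrays at the left.

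In BAT limma called 0 members, and 7 of all genes (0.0284%). At an unadjusted p under 0.05 there were 7 members, 15.2%, against 12.7% of all genes, and the test of the methods gave 8 before and 0 after adjustment. The groups did not overlap for 8 members, 17.4%, against 7.23% of all genes. Lower in all KO mice were Timp4, Timp3, Mmp12, Mmp19, Adamts1 and Adamts10, and higher in all KO mice were Adamts18 and Adamts15. Averaged over the BAT arrays, Adamts18 and Adamts15 lay below the silent-gene level of 2.74. Timp4 measured 6.22, 6.11, 6.13 and 6.08 in WT and 5.73, 5.49, 5.76 and 5.67 in KO BAT (-0.47, standard error 0.08, adjusted p = 0.0915). Mmp12 measured 4.85, 4.21, 4.17 and 4.52 in WT and 3.02, 3.84, 3.68 and 3.56 in KO mice (-0.91, standard error 0.20, adjusted p = 0.125). Mmp19 measured 5.26, 5.71, 5.46 and 5.65 in WT and 4.73, 5.10, 5.05 and 4.95 in KO mice (-0.56, standard error 0.12, adjusted p = 0.125). Timp3 differed by -0.57 (adjusted p = 0.161) and Adamts1 by -0.49 (adjusted p = 0.213). Without the 3 arrays high in skeletal muscle markers the count was still 0, and the differences of Timp4, Mmp12 and Mmp19 were -0.43, -1.26 and -0.54.

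In liver limma called 0 members, against 0.661% of all genes, and 0 members had groups without overlap, against 7.78%. At an unadjusted p under 0.05 there were 5 members, 10.9%, against 13.3% of all genes, and the test of the methods gave 1 before and 0 after adjustment. The smallest p values belonged to Timp2 (-0.33, interval -0.61 to -0.05, adjusted p = 0.288), Timp3 (-0.56, interval -1.04 to -0.08, adjusted p = 0.293) and Adamts10 (0.25, interval 0.03 to 0.48, adjusted p = 0.313). Timp3 measured 3.85, 4.20, 4.02 and 4.01 in WT and 3.30, 4.23, 2.94 and 3.36 in KO livers, with KO replicate 2 above all WT livers; without that mouse Timp3 was called (adjusted p = 0.0105, against 0.0105 to 0.491 over all alternatives). Of 7 hepatic stellate cell markers 4 were called lower in KO liver, and of 7 endothelial markers 3. So were 2 of 9 fibroblast and progenitor markers, 1 of 11 macrophage markers and 1 of 8 adipocyte markers. Over all genes 0.499% were called lower. The part of these cell types in the Timp values was not tested. Adamts13, which hepatic stellate cells make, measured 2.94 to 3.36 in WT and 3.30 to 3.65 in KO livers (0.25, interval 0.0034 to 0.489, adjusted p = 0.368).

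**Figure D4:**
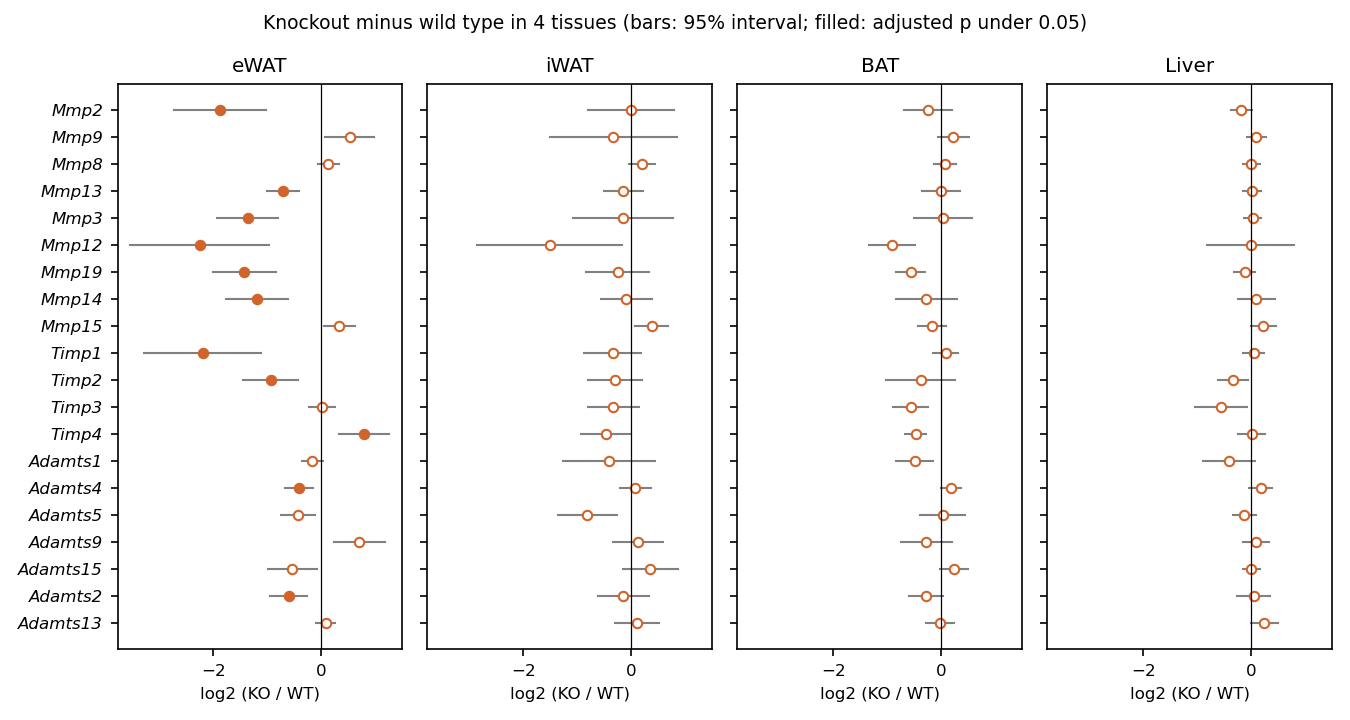
Difference between KO and WT means, in log2 units, for 20 members in eWAT, iWAT, BAT and liver; bars are 95% intervals from limma and filled points have an adjusted p under 0.05 over all genes. The filled points are all in eWAT, and Timp4 is to the right of 0 in eWAT and to the left in iWAT and BAT.

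Whether the eWAT changes differed from those of another tissue was tested on differences between tissues of the same mouse, so that each mouse gave 1 value per gene. Against BAT, the KO effect differed for 7 members, 15.2% against 6.93% of all genes. For Mmp14 the effect was -1.19 in eWAT and -0.27 in BAT, a difference of -0.92 (standard error 0.12, adjusted p = 0.00808). Timp4 was the exception in direction: its effect was 0.80 in eWAT and -0.47 in BAT, a difference of 1.27 (standard error 0.21, adjusted p = 0.0107). The eWAT value minus the BAT value of Timp4 was 1.48, 0.62, 1.26 and 1.18 in WT mice and 2.24, 2.85, 2.48 and 2.06 in KO mice, without overlap. Mmp2 (-1.64, adjusted p = 0.0138), Timp1 (-2.29, adjusted p = 0.0239), Mmp3 (-1.40, adjusted p = 0.0262), Adamts4 (-0.59, adjusted p = 0.0283) and Adamts15 (-0.77, adjusted p = 0.0329) were the other 5. Of these, Timp1, Mmp3, Adamts4 and Adamts15 averaged below the silent-gene level in BAT, where a decrease could not be seen. The count was 2 without WT replicate 4, 3 without KO replicate 1, 4 without WT replicate 2 or KO replicate 3, and 11 without KO replicate 2. Without the mice whose BAT arrays were high in skeletal muscle markers it was 8, but Adamts4 and Adamts15 were not called (adjusted p = 0.0938 and 0.115, with lowest values of 0.0252 and 0.0248 over the alternatives). The differences of Mmp12 (-1.35, adjusted p = 0.108) and Mmp19 were not called, and both genes were also lower in every KO mouse in BAT.

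Against liver, 9 members differed, 19.6% against 8.37% of all genes, all more negative in eWAT. They were Mmp14 (-1.29, adjusted p = 0.00493), Mmp12 (-2.25, adjusted p = 0.00830), Adamts4 (-0.59, adjusted p = 0.0113), Timp1 (-2.25, adjusted p = 0.0130), Mmp13 (-0.72, adjusted p = 0.0135), Mmp3 (-1.39, adjusted p = 0.0144), Mmp2 (-1.70, adjusted p = 0.0209), Mmp19 (-1.31, adjusted p = 0.0240) and Mmp27 (-0.54, adjusted p = 0.0380). Mmp27 averaged below the silent-gene level in both tissues, and so did Mmp13, while Mmp3, Timp1 and Adamts4 did so in liver. Mmp12 in liver averaged 2.90 in WT and 2.89 in KO mice, so that the difference lay in its eWAT values. These liver means were at the silent-gene level of 2.89, where a decrease could not be seen. Against iWAT, limma called 0 members and 0% of all genes, with 13 members (28.3%) at an unadjusted p under 0.05 against 10.8% of all genes. The differences there were -1.10 for Mmp14 (interval -1.66 to -0.55), -1.87 for Mmp2 (-3.01 to -0.73), -1.86 for Timp1 (-3.04 to -0.68) and 1.27 for Timp4 (0.64 to 1.90). They used all 8 iWAT arrays, in which the iWAT effects of these genes were -0.09, -0.01, -0.34 and -0.47. Without the 4 iWAT arrays high in B cell markers, which leaves 2 mice per genotype, those effects were -0.44, -0.74, -0.50 and -1.01. The 3 comparisons share the eWAT arrays and are not independent of each other.

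**Figure D5:**
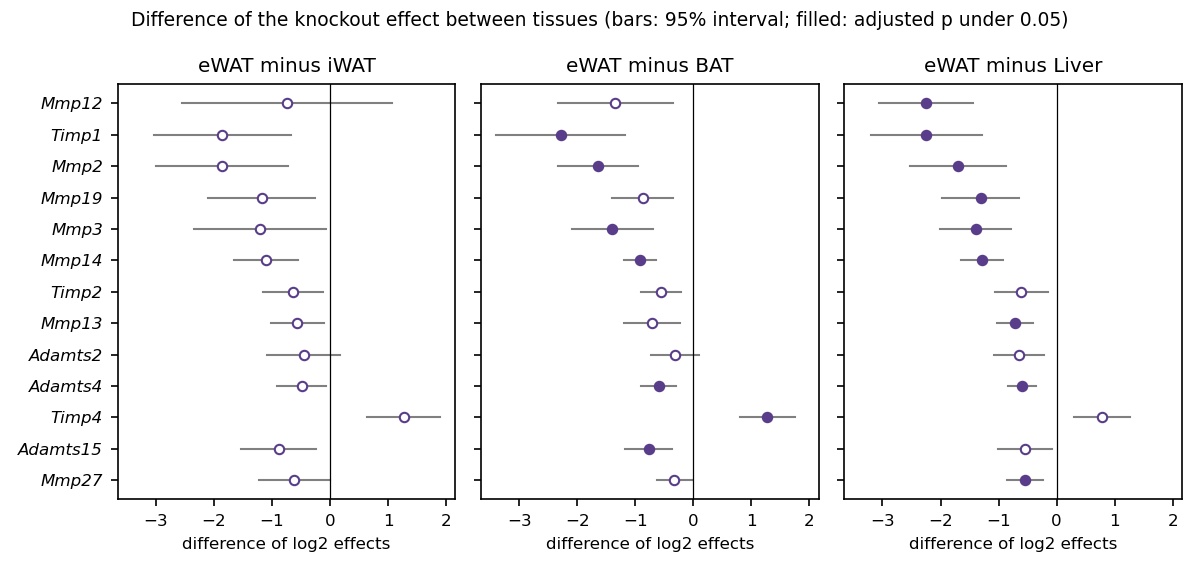
Difference of the KO effect (eWAT effect minus that of iWAT, BAT or liver), in log2 units, for the 11 members past the threshold in eWAT and for Adamts15 and Mmp27; bars are 95% intervals and filled points have an adjusted p under 0.05. Timp4 lies to the right of 0 in all 3 panels and the other 12 genes to the left.

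The tissues came as separate values, and a common normalization of them is not stated. Set side by side, WT levels of Mmp12 averaged 10.38 in eWAT, 6.92 in iWAT, 4.44 in BAT and 2.90 in liver. No 2 of these groups of 4 mice overlapped. WT levels of Timp4 averaged 7.27 in eWAT, 8.16 in iWAT, 6.14 in BAT and 2.03 in liver. WT levels of Timp1 averaged 5.36 in eWAT, 3.15 in iWAT, 2.14 in liver and 2.01 in BAT, and Timp1 was above the silent-gene level in eWAT alone. In KO mice Timp1 averaged 3.16 in eWAT and 2.80 in iWAT. Mmp15 was brightest in liver, with WT means of 5.73 there, 4.66 in BAT, 4.61 in iWAT and 4.07 in eWAT, the middle pair overlapping.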

How the data were processed

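Total RNA of 32 samples (4 tissues, 2 genotypes, 4 mice each) was measured on the Affymetrix Mouse Gene 2.1 ST array, from 100 ng of RNA labelled as biotinylated cRNA per the labels. The authors deposited 1 log2 value per gene symbol and array. The normalization and the summary of probes into genes are not given in the sources used here. For 840 genes, Mmp7 and Mmp24 among them, the identifier held a decimal point, which was read as several probe sets averaged into 1 value. Each tissue was a table of its own, and 1 or 2 entries without a valid symbol were left out of each. The number of arrays limits the precision, and array values have no counting depth.

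For each tissue, limma 3.58.1 (R 4.3.3) was fitted to KO and WT arrays over 24646 genes, with Benjamini-Hochberg adjustment and a threshold of 0.05. Differences between tissues were fitted the same way on eWAT minus the other tissue within a mouse, since the labels give the tissues of a mouse the same number. KO and WT mice share only that number: after subtracting group means, same-numbered KO and WT arrays correlated over 0.1 in 1 to 3 of 4 pairs, depending on the tissue, so no block was used. The procedure was tested on simulated data. The alternatives were quantile normalization, equal array medians, dim genes left out, a trended and robust prior, array weights, the replicate number as a block, no pairing by mouse, omission of each array, and the unpaired test of the methods, adjusted or not. Leaving out arrays high in B cell or muscle markers was chosen after seeing the data. Members and lists were chosen with earlier results of these data known. Genes named are those past the threshold without overlap (up to 12 per tissue) or, where none passes, the 3 smallest p, together with Timp1 to Timp4 and a fixed set of Mmp and Adamts genes; others were chosen after their values were seen. Some genes of these lists are not reported here. Markers Adgre1, Trbc1 and Cpt1b had no entry under those symbols. Promoter sequences came from RefSeq, GRCm38.p6. Figures were drawn with matplotlib 3.10.9.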

Additional observations from a re-analysis of the deposited data

Results flagged for a closer look

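Within the groups of 4 mice, 7 of 168 groups, over 21 genes examined in 4 tissues, held a mouse far from the other 3, and chance gives about 1 in 20. In eWAT, KO replicate 2 measured 4.44 for Timp1 against 2.70 to 2.76 in the other KO mice, and 2.47 for Mmp13 against 2.25 to 2.27. WT replicate 1 measured 8.65 for Adamts5 against 8.42 to 8.45. In iWAT, Mmp14 measured 6.82 in WT replicate 2 against 7.34 to 7.42, and 6.58 in KO replicate 1 against 7.31 to 7.37, so that both groups held a low mouse. Adamts5 measured 8.62 in iWAT KO replicate 4, an array with raised B cell markers, against 7.94 to 8.03. In BAT, Adamts13 measured 2.00 in WT replicate 2 against 2.36 to 2.42, all below the level of silent genes.

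The KO effect differed between tissues for the members already described. Between eWAT and BAT the differences were -1.64 for Mmp2, -1.40 for Mmp3, -0.92 for Mmp14, -2.29 for Timp1, 1.27 for Timp4, -0.59 for Adamts4 and -0.77 for Adamts15. Between eWAT and liver they were -1.70 for Mmp2, -0.72 for Mmp13, -1.39 for Mmp3, -2.25 for Mmp12, -1.29 for Mmp14, -1.31 for Mmp19, -0.54 for Mmp27, -2.25 for Timp1 and -0.59 for Adamts4. Each passed limma's test of the difference itself.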

How the results depend on the processing

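When arrays were omitted individually, the number of members called ranged from 4 to 16 in eWAT, from 0 to 1 in liver (1 without KO replicate 2) and from 0 to 0 in iWAT and BAT. For the comparison of effects it ranged from 2 to 11 for eWAT against BAT, from 0 to 5 for eWAT against iWAT (5 without KO replicate 2) and from 6 to 13 for eWAT against liver. The unpaired test of the methods at an unadjusted p under 0.05 gave 17 members in eWAT, 8 in BAT, 4 in iWAT and 1 in liver, and after adjustment 0 in eWAT, where 38 of all genes passed. Without the arrays high in B cell markers, 5 members were called in iWAT. With the replicate number as a block, 10 members were called in eWAT, where Timp4 lost its call (adjusted p = 0.0564), and 2 in the comparison of eWAT with iWAT; for eWAT against BAT Adamts15 lost its call (0.0715). The check of the pairing gave correlations of -0.38 to 0.67 between same-numbered KO and WT arrays in iWAT and of -0.06 to 0.22 in the other tissues. Arrays of the same mouse in eWAT and another tissue, paired by the labels in the comparison of effects, correlated at -0.06 to 0.30, with 2 or 3 of 8 pairs over 0.1.

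Among the calls in eWAT, Mmp14 missed the threshold without WT replicate 2 or 4 (adjusted p up to 0.0563), and Timp1 without WT replicate 2 or 4 or KO replicate 1 or 4 (up to 0.0584). Mmp12 missed it without any array but KO replicates 2 and 3 (up to 0.0774), and Timp2 without any but KO replicate 2 (up to 0.0633). Timp4 missed it without WT replicate 2, 3 or 4 or KO replicate 1 or 3 (up to 0.0788), Adamts4 without WT replicate 1, 2 or 4 or KO replicate 1 or 3 (up to 0.111), and Adamts2 without any but WT replicate 3 and KO replicate 2 (up to 0.0837). Adamts9 and Adamts5 passed without KO replicate 2 (0.000285 and 0.00245, over ranges of 0.000285 to 0.130 and 0.00245 to 0.161). Without pairing by mouse, the differences of Mmp14 and Adamts15 between eWAT and BAT were not called (adjusted p = 0.198 and 0.0743), nor was that of Mmp12 between eWAT and liver (0.0717). The difference of Adamts1 in eWAT turned to 0.0128 with quantile normalization, and that of Timp3, close to 0, ranged from -0.0419 to 0.0812 with an array left out. The cause of these shifts was not tested. Dim genes such as Mmp13 and Adamts4 are limited by their signal over background.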
